A study of Homo sapiens with 13 samples.

Results

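The regions described here are 4141 stretches of the human genome at which LEF1 and TCF7L2 were each met by a CUT&RUN peak in every library of their antibody, with LEF1 peaks of limited length. All peaks of the 6 LEF1 lists that overlapped by at least 1 bp were merged into 644918 regions, of which 65207 held a peak in all 6 LEF1 lists. Of these, 8735 also overlapped a peak in each of the 6 TCF7L2 lists. The 4141 members are those in which no LEF1 peak reached 2000 bp, and the other 4594, with at least 1 LEF1 peak of 2000 bp or more, are called broad regions. The members made up 0.642% of all merged LEF1 regions, 6.35% of those in all 6 LEF1 lists and 47.4% of those in all 12 lists. The members were chosen by presence in the 12 lists and by the length of the LEF1 peaks, so these are described below without a test.

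CUT&RUN places a nuclease at the sites that an antibody recognises in permeabilised cells and sequences the DNA it releases. The cells were Nalm6, an established human line of B-cell acute lymphoblastic leukaemia, cultured in serum stripped with charcoal, a treatment that removes steroid hormones. There were 4 groups of 3 replicates: LEF1 antibody on control cells, LEF1 antibody on cells given prednisolone at 5 µM for 24 h, and the same pair of treatments with the TCF7L2 antibody. They are called controls because the labels name a vehicle in the protocol but no treatment elsewhere. The replicates are described as independent experiments on a single cell line, and the IgG sample was not analysed here.

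LEF1 and TCF7L2 belong to the TCF/LEF family of transcription factors, which bind DNA through an HMG box and recruit beta-catenin when the canonical Wnt pathway is active and Groucho/TLE corepressors when it is not. LEF1 is known for its part in early lymphoid development. TCF7L2 is best known from intestinal and metabolic tissues. Prednisolone is a synthetic glucocorticoid that acts through the glucocorticoid receptor, a nuclear receptor that binds DNA itself, and it is a standard drug in lymphoblastic leukaemia.

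Each peak carries a summit, a fold enrichment and −log10 values of p and q, all of them the authors' own. The 12 lists held 128863 to 395786 peaks, and read totals were not used here, so depth could be judged from the lists alone. The lowest −log10 p-value was 1.3 in every list, so that weak peaks count as present. Presence in all 12 lists therefore did not require a strong peak in each. A −log10 p-value under 2 in at least 1 list was found at 2228 members (53.8%), at 1948 in a TCF7L2 list and at 571 in a LEF1 list. As a group the members stood above their lists. The median place of their best peaks was 3.43% to 17.4% from the top of a list. Their median fold was 4.26 to 4.60 in LEF1 libraries, against 2.22 to 3.00 for all peaks of a list. In TCF7L2 libraries it was 2.67 to 3.25, against 2.19 to 2.46. A −log10 q-value of at least 2 in all 12 lists was reached by 193 members, and of at least 5 by 65. The shortest peak was 164 to 165 bp in LEF1 control 1 and prednisolone 2 and 3 and 187 to 197 bp in the other 3 LEF1 libraries. In the TCF7L2 libraries the same replicates had the longer minimum, 193 to 201 bp against 158 to 167 bp. What differed between these sets of libraries is not stated, each set holds both treatments, and values within each set are given below.

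The members covered 7.05 Mb. Their median length was 1650 bp, from 249 to 6523 bp, since overlapping peaks of different libraries join into a region longer than any of them, and the longest LEF1 peak of a member had a median of 1419 bp. Within 10 kb of another member lay 638 of them (15.4%), and the most crowded run held 8 members in 31.5 kb at chr2:92289723-92321271 (hg19, as for all positions here). The next held 6 members in 38.4 kb at chr9:33167203-33205602. No hg19 sequence or annotation was used here, so no member is assigned to a gene or motif and no sequence is shown.

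The limit of 2000 bp fell within a continuous range. Just inside it were chr3:42844787-42846905, chr5:3993236-3995502 and chr6:111798411-111800409, each with a longest LEF1 peak of 1999 bp. Just outside were chr17:2337987-2340611 and chr20:61584575-61586574 at 2000 bp and chr7:105805574-105807753 at 2001 bp. Over the 6 libraries the fold of the best LEF1 peak was 1.6 to 4.74, 6.03 to 16.1 and 1.49 to 5.47 at the chromosome 3, 5 and 6 members inside the limit. At the chromosome 17, 20 and 7 regions outside it was 1.86 to 4.66, 2.80 to 5.90 and 3.63 to 5.21, so that the folds on either side overlapped.

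The share of narrower regions was lower the more TCF7L2 lists met a LEF1 region. Among LEF1 regions in all 6 LEF1 lists, 98.5% were narrower where no TCF7L2 list had a peak (6379 of 6479), 87.7% where 3 lists had one and 65.4% where 5 did. In all 6 TCF7L2 lists it was the 47.4% that are the members. A further 5195 narrower regions missed membership by a single TCF7L2 list.

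**Figure D1:**
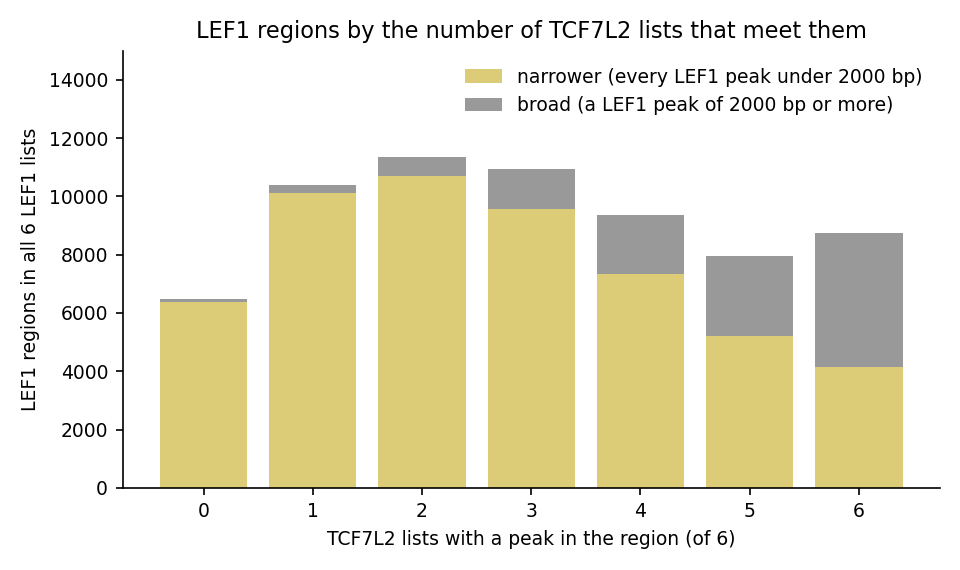
LEF1 regions present in all 6 LEF1 lists (vertical axis) by the number of TCF7L2 lists with a peak in the region (horizontal axis, 0 to 6), split into narrower regions (lower part of each bar) and broad regions (upper part). The narrower part of the last bar is the 4141 members, and the broad part of that bar is the 4594 broad regions.

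The members' share of the LEF1 regions in all 6 lists differed among chromosomes. It was 4.08% on chromosome 13 (84 of 2061), 10.4% on chromosome 19 (141 of 1361) and 12.1% on the X chromosome (147 of 1210). Chromosome 1, with the most members, had 411 of 6520 (6.30%). On the X chromosome 19.1% of the shared LEF1 regions were in all 12 lists, the highest share of any chromosome, and 63.6% of those were narrower. The corresponding values on chromosome 13 were 11.2% and 36.4%, the lowest of each. The members on the X chromosome had a median TCF7L2 fold of 3.34 and a median LEF1 fold of 4.11, beside 2.95 and 4.39 over all members. Their TCF7L2 peak was the longer in 37.4%, and on chromosome 19 in 36.2%, beside 20.4% of all members.

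LEF1 and TCF7L2 strength were nearly unrelated among the members. The median fold over the 6 libraries had a median of 4.39 for LEF1, with 2.54 and 8.39 at the 10th and 90th percentiles, and a median of 2.95 for TCF7L2, with 2.26 and 4.75. Over the 4141 members, Spearman's rank correlation of −log10 p-values was 0.549 to 0.771 between LEF1 libraries and 0.372 to 0.600 between TCF7L2 libraries. Between a LEF1 and a TCF7L2 library it was 0.0319 to 0.177. These are descriptions over regions that share their libraries, and the rule, which asks for a peak of each antibody, bounds both strengths from below.

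The strength of a member can be read from its place in each list. A top peak here is 1 of the 20000 peaks with the highest −log10 p-value in a list, which sets all lists to equal length. A top peak in all 12 lists was held by 182 members (4.40%). In all 6 LEF1 lists 820 had one, and in all 6 TCF7L2 lists 671. By the authors' q-value, 1056 members reached a −log10 of 5 in all 6 LEF1 lists and 717 in none. No LEF1 list had a top peak at 1073 members, no TCF7L2 list at 388, and none of the 12 lists at 145. The classes by strength in this and the following paragraphs were drawn after the values were seen and are descriptions.

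At 109 members TCF7L2 was among the 5000 strongest peaks in all 6 of its lists while no LEF1 list had a top peak there. Their median fold was 8.96 for TCF7L2 and 2.43 for LEF1. The TCF7L2 peak was the longer in 107 of the 109 (98.2%), with a median of 1942 bp against 581.5 bp. It was the longer in 20.4% of all members and in 74.2% of the 387 among the 5000 strongest in all 6 TCF7L2 lists. The rule limits LEF1 length alone and the 109 were picked as strong for TCF7L2 and weak for LEF1, so this contrast is partly built in. The LEF1 and TCF7L2 summits, each the median position over 6 libraries, lay 276 bp apart in the median of the 109. The distance was 99 bp over all members and 104 bp over the 387. The TCF7L2 summit lay outside the LEF1 region in all 6 lists at 33 of the 109 (30.3%), against 68 of all 4141 (1.64%). The whole LEF1 region lay inside the TCF7L2 peak of all 6 lists at 14 of the 109 (12.8%), against 33 of all members (0.797%). A TCF7L2 peak was shared with another member at 25 of the 109.

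The strongest of these were on chromosomes 17 and 21. At chr17:7589529-7590273 the TCF7L2 fold was 48.3, 52.0 and 62.8 in the control libraries and 45.7, 41.8 and 39.8 after prednisolone. The LEF1 fold there was between 1.72 and 2.5 in all 6 LEF1 libraries. The TCF7L2 peak had a median length of 4301 bp and the LEF1 peak 347.5 bp. The neighbouring members chr21:19190403-19190991 and chr21:19191756-19192765 lay under the same TCF7L2 peak of 3264 bp, with a fold of 34.5 to 52.1, and their own LEF1 folds were 1.78 to 3.41 and 1.42 to 2.51. They are therefore not separate measurements of TCF7L2. Over all members 86 (2.08%) shared a TCF7L2 peak with another in at least 1 list.

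The reverse case held 7 members, which were among the 5000 strongest LEF1 peaks in all 6 lists with no top TCF7L2 peak in any. The classes behind these counts differed in size as well. Among the 5000 strongest were 164 members in all 6 LEF1 lists and 387 in all 6 TCF7L2 lists. No top TCF7L2 peak was held by 388 members and no top LEF1 peak by 1073. The rule limits the length of LEF1 peaks alone, so 7 against 109 is no measure of a difference between the antibodies. At chr1:144620943-144622030 the LEF1 fold was 29.9, 32.3 and 31.5 in the control libraries and 29.6, 29.4 and 25 after prednisolone. The TCF7L2 fold was 1.99 to 3.02 over its 6 libraries. At chr20:57933629-57934994 LEF1 folds of 11.2 to 13.4 stood beside TCF7L2 folds of 1.67 to 2.66, and at chr7:140075291-140076697 LEF1 folds of 11.9 to 19 beside 2.34 to 3.17. The LEF1 summits at these 7 members lay a median of 82 bp from the TCF7L2 summits. This was closer than over all members (99 bp) but farther than over the 164 members among the 5000 strongest in all 6 LEF1 lists (41 bp).

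**Figure D2:**
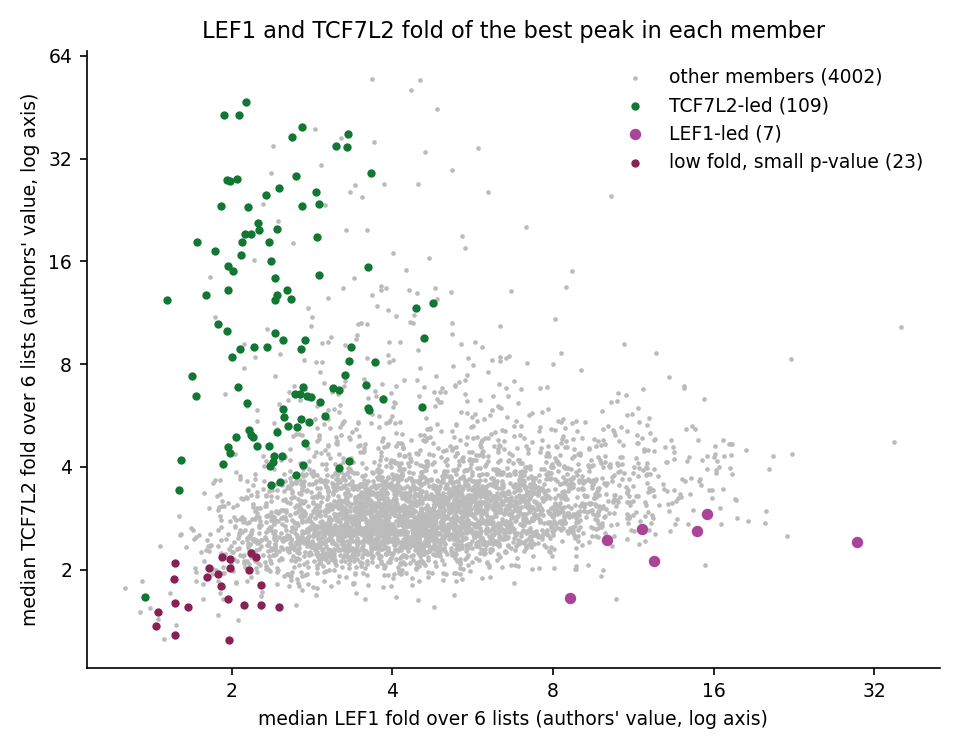
Each point is a member, placed by the median over 6 lists of the authors' fold of its best LEF1 peak (horizontal, log axis) and of its best TCF7L2 peak (vertical, log axis). The 109 members led by TCF7L2 lie mainly along the upper left, the 7 led by LEF1 at the lower right, and the 23 of low fold but small p-value at the lower left.

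The 5 members with the best worst rank over the 12 full lists differed in fold. The member whose worst rank over the 12 full lists was best was chr18:18518286-18520294, never below place 360. Its fold was nevertheless low, 1.76 to 2.40 for LEF1 and 1.36 to 1.88 for TCF7L2. The next, chr8:43092771-43093917, had folds of 1.29 to 2.33 and 1.21 to 1.35, and chr2:92319769-92321271, the last of the run of 8, had 2.26 to 2.77 and 1.63 to 2.20. The other members of the first 5 were unlike these. At chr13:110615698-110617640 the LEF1 fold was 10.6 to 11.7 in control libraries and 14.8 to 15.3 after prednisolone, with TCF7L2 folds of 5.58 to 8.74, and the summits of the antibodies lay 3.5 bp apart. At chr1:230498984-230500874 the LEF1 fold was 7.35 to 13.8, the TCF7L2 fold 4.57 to 9.14 and the summit distance 1.5 bp.

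At the other end, the best place that chr16:24587733-24588668 held in any list was 66370. For chr13:115098857-115100464 it was 62287 and for chr7:61646382-61647406 it was 61983. Their folds were between 1.61 and 3.21 in every library.

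Stronger TCF7L2 calls went with closer summits up to a point. The 1399 members that passed a −log10 q-value of 2 in no TCF7L2 list had a median summit distance between the antibodies of 129.5 bp, and the 305 that passed in 4 lists had 64 bp. The 385 that passed in all 6 had 112 bp, and their TCF7L2 peaks were the longest, with a median of 1318.5 bp against 409.5 bp. Over all members 50.5% had summits within 100 bp, and 72.0% of those with a top peak in all 12 lists did.

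The position of the summit was compared between pairs of libraries, as the median over the members of the distance between the summits of their best peaks. Pairs of LEF1 libraries lay 71 to 132 bp apart, pairs of TCF7L2 libraries 141 to 186 bp, and a LEF1 and a TCF7L2 library 134 to 208 bp. Within treatments, pairs across antibodies were 178.7 bp apart on average and pairs of the same antibody 130.0 bp. The difference was 48.7 bp, and exchanging the antibody labels within treatments gave p = 0.01 (exact permutation, one-sided), the smallest value the 400 relabellings allow. The distances across antibodies overlapped those among TCF7L2 libraries, and the LEF1 pairs were the closest. Within treatments, LEF1 pairs averaged 97.2 bp and TCF7L2 pairs 162.8 bp. The regions are built from LEF1 peaks of limited length, while a TCF7L2 peak need only overlap them. The TCF7L2 summit lay inside the region in all 6 lists at 81.5% of the members. The test therefore cannot tell a difference in position from closer LEF1 summits within these regions. The difference was 34.1 bp (p = 0.01, the same exact test) over the 193 members that passed a −log10 q-value of 2 in all 12 lists.

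No movement of the summits with the treatment was detected beyond the replicate spread. For LEF1, pairs across treatments were 108.1 bp apart and pairs within 97.2 bp, a difference of 10.9 bp (exact permutation test, one-sided, p = 0.2). For TCF7L2 the values were 172.3 and 162.8 bp, a difference of 9.5 bp (exact permutation test, one-sided, p = 0.2). The smallest p-value this design allows is 0.1. Leaving out 1 library gave 3.33 to 22.3 bp for LEF1 (lowest without prednisolone 2, highest without prednisolone 1) and 0.583 to 23.7 bp for TCF7L2 (lowest without control 1, highest without prednisolone 1), with exact p-values of 0.1 to 0.3. By the sets of libraries, LEF1 pairs of the same treatment were 71 and 89 bp apart within a set and 96 to 120 bp across sets, while TCF7L2 pairs were 142 and 176 bp apart within and 150 to 184 bp across.

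Every prednisolone library had more members with a top LEF1 peak than any control library. The count was 1748, 1780 and 1771 in the control libraries and 2006, 1950 and 2010 after prednisolone. The means were 1766 ± 16.5 and 1989 ± 33.5 (SD, n = 3 each), a difference of 222.3 members or 12.6%, with p = 0.1 in the two-sided exact permutation test, the smallest that 3 libraries against 3 can give. Within the sets of libraries the difference was 232 and 230.5. Among the broad regions the counts were 3602 ± 74.5 and 3721 ± 73.2 (n = 3 each), a difference of 118.7 or 3.29%, with p = 0.1 in the same exact test. That difference was 75.7 without control 1 (exact p = 0.2) and 79.5 without prednisolone 1 (exact p = 0.4). Most of the 4594 broad regions thus held a top LEF1 peak in either treatment. Members and broad regions also had to hold a TCF7L2 peak in every list, and the part this has in the LEF1 differences was not tested.

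For TCF7L2 the counts lay the other way. Members with a top TCF7L2 peak numbered 2227, 2266 and 2358 in the control libraries and 2248, 1868 and 1905 after prednisolone. The first prednisolone library lay among the controls and the other 2 lay below them. The difference was −276.7 members (−12.1%; exact permutation test, two-sided, p = 0.2), and it was −64 and −340.5 within the sets of libraries. With the 5000 strongest peaks of each list in place of 20000, the difference was 22.3 in the opposite direction (exact permutation test, p = 0.4). The lists of prednisolone 2 and 3 also held the fewest strong TCF7L2 peaks: 1364 and 1271 passed a −log10 q-value of 5, against 2249 to 3524 in the other 4 lists, and the part this has in the count was not tested. The broad regions had 2814 ± 27.7 and 2315 ± 244.5 (n = 3 each), a difference of −499 or −17.7%, with p = 0.1 in the same exact test.

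**Figure D3:**
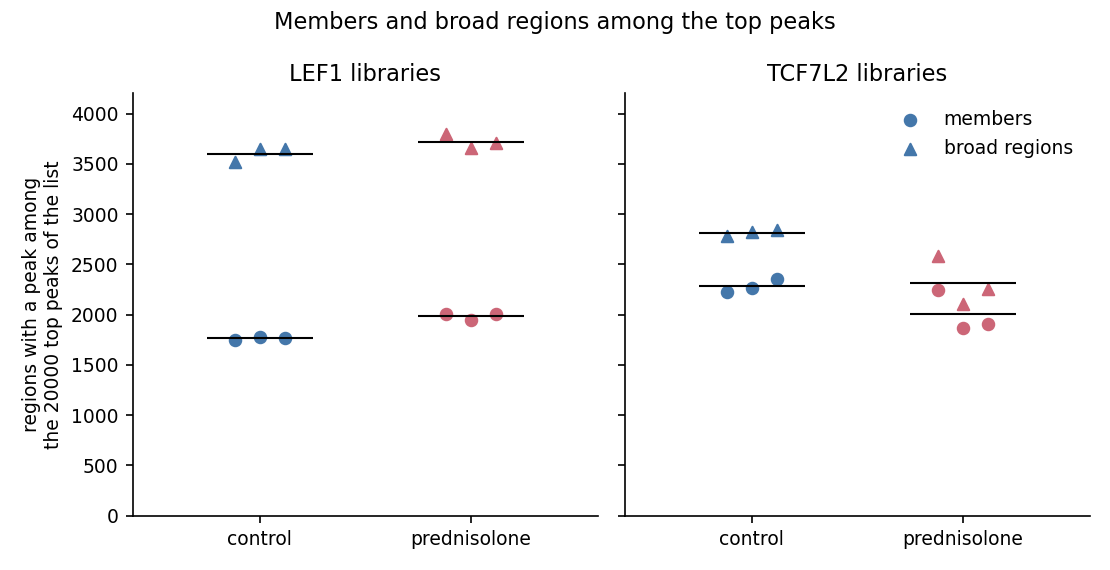
Number of regions with a peak among the 20000 strongest of a list (vertical axis), for LEF1 (left) and TCF7L2 libraries (right), in control and prednisolone cells. Each circle is the count of members in a library, each triangle that of broad regions, and lines are means of 3: the LEF1 circles of prednisolone cells, 1950 to 2010, all lie above those of control cells, 1748 to 1780.

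The TCF7L2 peaks of the members had a shorter median in every prednisolone library than in any control library. The median length was 684, 573 and 594 bp in the control libraries and 540, 527 and 492 bp after prednisolone. The means were 617 ± 59.0 and 519.7 ± 24.8 bp (SD, n = 3 each), a difference of −97.3 bp or −15.8%, with p = 0.1 in the two-sided exact permutation test, the smallest possible. It was −43.5 and −174.5 bp within the sets of libraries, and −63.8 bp without control 1. The median length of all peaks of a list was 241 to 318 bp in control and 259 to 323 bp in prednisolone libraries, and with it subtracted the difference in the members was −119.3 bp (p = 0.1, exact). The fold of the best TCF7L2 peak had a median over members of 2.98, 3.14 and 3.25 in the control libraries and 3.12, 2.79 and 2.67 after prednisolone.

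Single members were compared by their rank among the same regions in every library, turned into normal scores and fitted with limma. For LEF1 the fit ran over the 65207 regions in all 6 LEF1 lists. At an adjusted p-value under 0.05 limma called none of the 4141 members, against a background of 0.00153% of all regions (1 region, which is lower). At an unadjusted p-value under 0.05 there were 682 members, 493 higher after prednisolone (11.9%) and 189 lower (4.56%), beside 6.99% and 5.98% of all regions. Those regions, unlike the members, did not all hold a TCF7L2 peak in every list. With limma's variance trend, an alternative chosen after seeing the data, 84 members passed (background 1.16%), 65 higher and 19 lower (backgrounds 0.784% and 0.373%). In simulated data this alternative recovered more of the moved regions than the fit without the trend but also called more regions that had not been moved, most of all for TCF7L2, so that its calls are less certain than their adjusted p-values state. For TCF7L2, fitted over the 8735 regions in all 12 lists, limma called no member (background 0%). There 450 members had an unadjusted p-value under 0.05, 265 higher and 185 lower, beside 5.93% and 5.58% of all regions. With the variance trend 3 members passed (background 0.0572%), 2 higher and 1 lower (backgrounds 0.0343% and 0.0229%).

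Members whose ranks do not overlap between treatments were also counted, without a model. For LEF1, 692 members (16.7%) ranked higher in all 3 prednisolone libraries than in any control library, where the background over all 65207 regions was 9.73%. Lower in all 3 were 356 (8.60%; background 9.95%). Of the broad regions 16.5% were higher and 10.7% lower. Members and broad regions had to hold a TCF7L2 peak in every list, which the 65207 regions did not. The rule gave 4714, 5400 and 6150 members without TCF7L2 prednisolone 1, 2 and 3. Without a TCF7L2 control library it gave 4528 to 4648. The part that this requirement has in the LEF1 shares was not tested. The split holds against the other LEF1 regions: ranked among the members alone, 516 were higher and 523 lower. For TCF7L2, 387 members were higher (9.35%, background 8.93%) and 289 lower (6.98%, background 8.52%). That background of 8735 regions includes the members. Of the broad regions 8.55% were higher and 9.90% lower for TCF7L2, so the members were lower less often, a difference that was not tested.

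The members higher for both antibodies numbered 138, which is 19.9% of those higher for LEF1 and 35.7% of those higher for TCF7L2. Those lower for both numbered 43, or 12.1% and 14.9%. Over all 8735 regions in the 12 lists the corresponding shares were 21.2% and 39.5% for higher and 17.5% and 19.9% for lower. As a share of regions, 3.33% of the members were higher for both and 1.04% lower for both, beside 3.53% and 1.69% of all 8735 regions in the 12 lists. Higher for LEF1 and lower for TCF7L2 were 34 (0.821%), and the opposite 28 (0.676%), beside 0.641% and 0.446% of all 8735 regions. The antibodies have separate control libraries, so these counts share none.

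The 3 members with the smallest p-values for a higher LEF1 rank were on chromosomes 12, 13 and 19. At chr12:93696040-93697798 the LEF1 fold was 3.08, 4.33 and 5.00 in control libraries and 37.2, 22.7 and 24.3 after prednisolone. Its rank among the 65207 regions went from between 27432 and 53631.5 to between 80 and 509.5. The difference was 2.95 ± 0.38 normal scores (SE), with a limma adjusted p of 0.0757, 0.000167 with the variance trend and up to 0.301 over the other alternatives. TCF7L2 at this member had folds of 2.35, 3.26 and 1.93 in control and 5.86, 3.38 and 5.35 in prednisolone libraries, also without overlap.

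The same pattern held at chr13:51339220-51341424 and chr19:14921539-14923552. At the chromosome 13 member the LEF1 fold was 3.62, 3.16 and 3.13 in control and 11.1, 14.8 and 15.6 in prednisolone libraries (limma adjusted p = 0.0757, or 0.00119 with the variance trend). Its TCF7L2 folds were 2.13, 2.61 and 3.02 against 9.40, 5.91 and 4.07. At the chromosome 19 member LEF1 folds were 2.72, 2.80 and 2.5 against 11.7, 12.8 and 8.46, and TCF7L2 folds 2.93, 2.51 and 3.21 against 6.51, 4.51 and 5.35. Over the 6 libraries of each antibody, the summits there spanned 1318 bp for LEF1 and 1037 bp for TCF7L2. The TCF7L2 summits of the chromosome 13 member spanned 1200 bp. These folds therefore need not come from the same site in every library. All 3 members with the smallest p-values for a higher LEF1 rank thus had higher TCF7L2 ranks too, none of which limma called (adjusted p = 0.244 to 0.273). A further member, chr5:132368194-132369568, was named by its difference for both antibodies: its LEF1 fold was 4.15, 5.37 and 4.58 in control and 14.5, 22.2 and 32.4 in prednisolone libraries, and its TCF7L2 fold 2.98, 4.57 and 3.46 against 13.1, 12.6 and 5.01.

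Of the members lower for LEF1, chrX:70751508-70752940 had folds of 5.92, 5.97 and 5.56 in control and 1.62, 1.81 and 1.63 in prednisolone libraries. The difference was −2.52 ± 0.34 normal scores, with a limma adjusted p of 0.0757, and of 0.0162 with the variance trend. Its TCF7L2 folds of 3.04, 4.54 and 5.15 and of 3.48, 3.28 and 2.13 overlapped. At chr16:87269525-87270311 the LEF1 fold was 4.45 to 5.88 in control and 1.90 to 2.71 in prednisolone libraries (limma adjusted p = 0.125). At chr16:35269541-35272611 it was 2.85 to 4.29 and 1.83 to 1.96 (limma adjusted p = 0.104). The LEF1 summits of this member spanned 2611 bp and no LEF1 peak exceeded 1036 bp, so its folds do not all come from the same site.

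For TCF7L2 the first of the higher members was chr14:57043794-57045468. The fold was 2.86, 2.68 and 4.82 in control and 33.2, 27.5 and 18.9 in prednisolone libraries. Its rank among the 8735 regions went from between 2758.5 and 6733.5 to between 54.5 and 64.5, a difference of 2.77 ± 0.41 normal scores, with a limma adjusted p of 0.236 and of 0.00078 with the variance trend. LEF1 there had folds of 3.11 to 3.49 and then 4 to 4.89. The LEF1 and TCF7L2 summits lay 1546 bp apart, so that the TCF7L2 maximum was not at the LEF1 peak of this member. Its TCF7L2 summits spanned 2090 bp over the 6 libraries, so the TCF7L2 folds need not come from the same site in every library. At chr11:48828619-48830124 the TCF7L2 fold was 1.56, 1.78 and 1.79 in control and 3.24, 3.11 and 5.94 in prednisolone libraries (limma adjusted p = 0.236), while LEF1 folds of 2.27 to 2.68 and 1.90 to 2.43 overlapped. The other members that passed with the variance trend were chr18:18518286-18520294 (adjusted p = 0.0454) and chr1:154908932-154910445. The latter was always at the top, at ranks 2 in the control and 4 to 5 in the prednisolone libraries, and its difference of −0.27 normal scores (limma with variance trend, adjusted p = 1.25e-07; 0.749 without the trend) stands for a change of 2 to 3 places.

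The members with the smallest p-values for a lower TCF7L2 rank were chr6:109665327-109667651, chr1:230311719-230313936 and chr15:44580886-44582379. At the first, TCF7L2 folds were 5.41, 4.74 and 4.45 in control and 2.14, 1.99 and 1.91 in prednisolone libraries (limma adjusted p = 0.236). LEF1 was lower there as well, at 10.5, 13.8 and 13.2 against 8.05, 4.15 and 5.29. At the second, TCF7L2 folds were 3.44 to 3.69 against 1.83 to 2.17 while LEF1 folds of 2.10 to 3.49 and 2.17 to 3.11 overlapped. At the third they were 7.13, 3.44 and 9.75 against 2.06, 1.66 and 1.89 (limma adjusted p = 0.244).

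**Figure D4:**
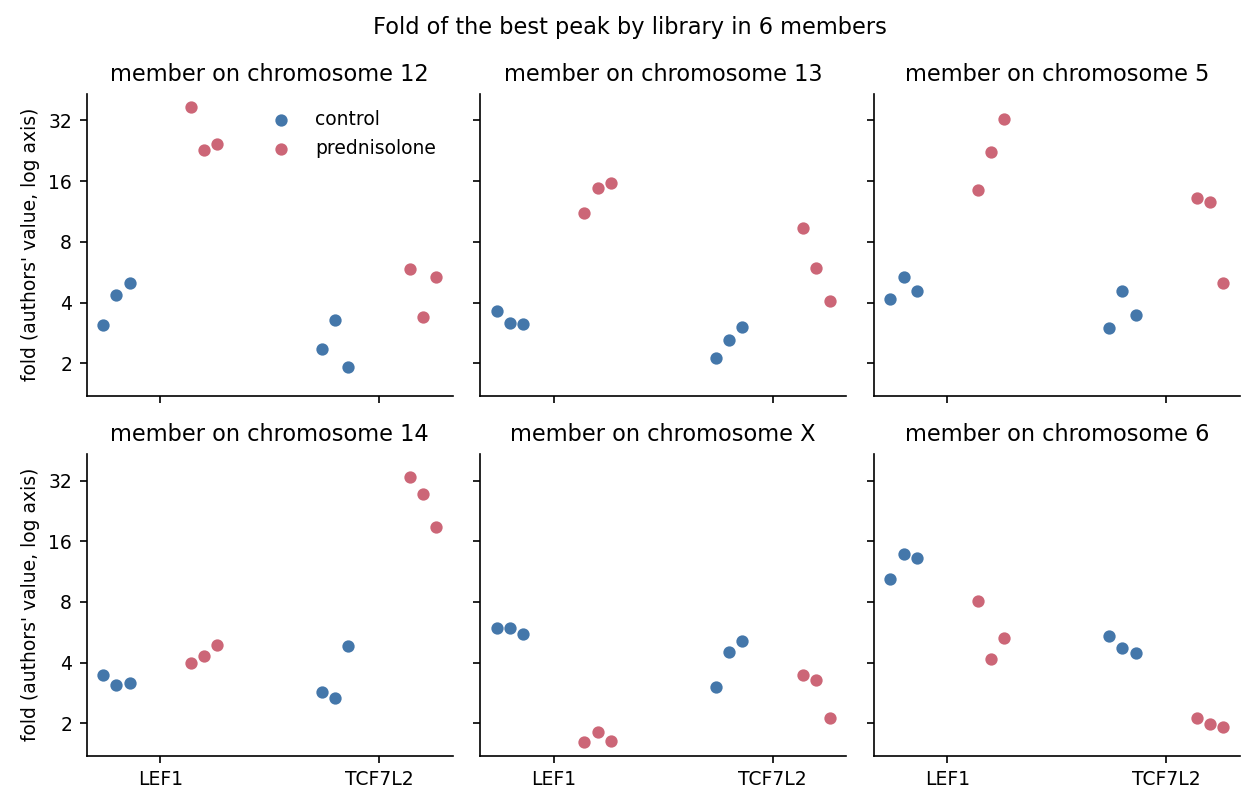
The authors' fold of the best peak (vertical, log axis) in each of the 12 libraries at 6 members, with LEF1 libraries at the left and TCF7L2 libraries at the right of each panel, control and prednisolone in separate colours. At the chromosome 12, 13 and 5 members the prednisolone libraries lie above the control libraries for both antibodies, at the chromosome 14 member the gap is widest for TCF7L2, and at the chromosome X member LEF1 alone is separated downwards.

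Members next to the longest stretch of each chromosome without any peak had ranks that lay the other way from the rest for LEF1. In hg19 the centromere of many chromosomes is an unfilled gap, in which no peak can be called, but on chromosomes 13, 14, 15 and 22 the longest stretch was only 0.0554 to 0.488 Mb and need not be such a gap. Within 1 Mb of that stretch lay 90 members (2.17%), against 1.26% of the LEF1 regions in all 6 lists (822). Their median LEF1 fold was 2.57 and TCF7L2 fold 2.29. For LEF1, 27 of the 90 (30%) ranked lower in all prednisolone than in all control libraries and 7 (7.78%) higher, in contrast to 8.12% lower and 16.9% higher among the other 4051 members. For TCF7L2, 36 (40.0%) ranked higher and 2 (2.22%) lower, against 8.66% and 7.08%. On the chromosomes with a stretch under 1 Mb lay 10 of the 90, of which none was lower and 3 were higher for LEF1 and 3 were higher for TCF7L2. The other 80 held all 27 that were lower for LEF1 and 33 of the 36 that were higher for TCF7L2. The distance of 1 Mb was chosen after the values were seen, so no test is given.

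The library values show the same opposite movement. The median LEF1 rank of the 90 members, as a place from the top of the 65207 regions, was at 27.8%, 26.6% and 25.2% in the control libraries and 31.3%, 39.6% and 34.1% after prednisolone. Their median TCF7L2 rank, from the top of the 8735 regions, was at 49.3%, 56.2% and 65.1% in the control libraries and 36.4%, 17.6% and 21.3% after prednisolone. No library overlapped with the other treatment for either antibody, and the direction was the same within each set of libraries. The other 732 LEF1 regions in all 6 lists within 1 Mb, which are no members, had 9.29% higher and 10.5% lower for LEF1, near the background. The 58 broad regions within 1 Mb had 22.4% higher and 8.62% lower for TCF7L2, where the background was 8.93% and 8.52%, so higher TCF7L2 ranks were not limited to the members there.

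**Figure D5:**
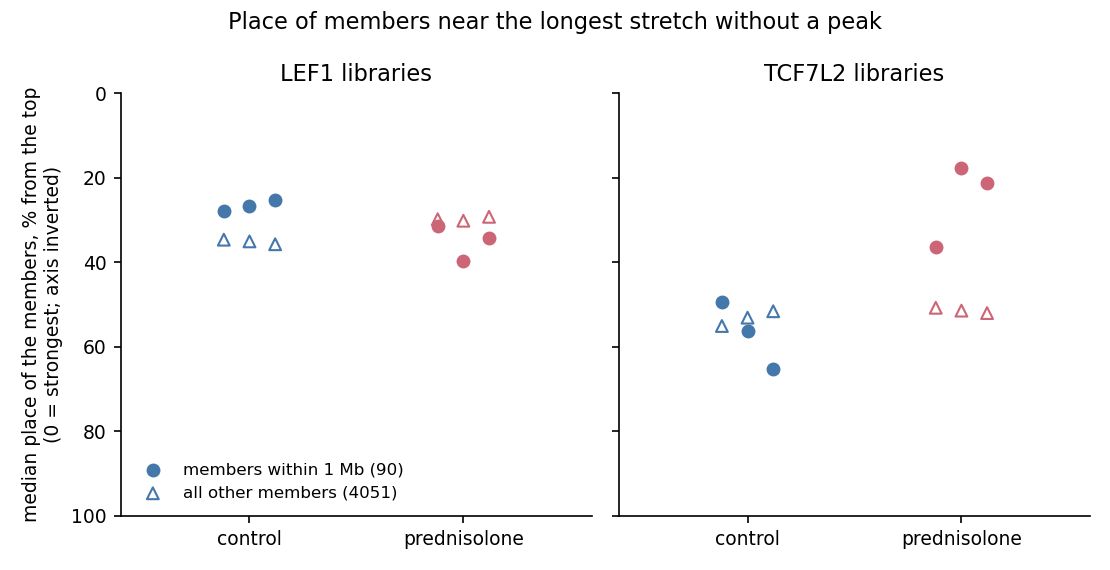
Median place of members among the shared regions, in percent from the top (vertical, inverted, so that stronger is higher), for the 90 members within 1 Mb of the longest stretch without a peak (filled circles) and the other 4051 (open triangles), in LEF1 libraries (left, of 65207 regions) and TCF7L2 libraries (right, of 8735 regions). After prednisolone the circles lie lower for LEF1 and higher for TCF7L2, while the triangles move less for TCF7L2 and upwards for LEF1.

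Most of the members of low fold but small p-value belong here. Taken as a median fold under 2.5 for both antibodies with a median LEF1 −log10 p-value of at least 10, they numbered 23, and 20 of them (87.0%) lay within 1 Mb of the stretch. They include 7 of the 8 members of the run on chromosome 2 and 4 on chromosome 18. Their median fold was 1.92 for LEF1 and 1.81 for TCF7L2, while the summits of the antibodies lay a median of 8 bp apart. LEF1 ranked lower without overlap in 13 of the 23 and higher in 1, and TCF7L2 higher in 14 and lower in none (56.5% lower for LEF1 and 60.9% higher for TCF7L2, where the backgrounds were 9.95% and 8.93%). At chr11:51569665-51570156, which is close to the stretch on chromosome 11, TCF7L2 folds were 1.29, 1.27 and 1.46 in control and 1.91, 1.99 and 2.06 in prednisolone libraries, and LEF1 folds 2.95, 2.95 and 3.26 against 2.79, 1.40 and 1.31. Without the 90 members, the difference in members with a top peak was 231.7 for LEF1 and −294 for TCF7L2, as large as with them.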

How the data were processed

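CUT&RUN libraries of Nalm6 cells (LEF1 or TCF7L2 antibody, control or prednisolone, 3 replicates each) were analysed as the authors' peak lists, 1 per library, with no list pooling replicates. Peaks were called with MACS2 on hg19, per the submitters' processing notes. The MACS2 version, aligner, control library and filters are not given in the sources used here. For each peak the authors deposited a fold ratio over background and −log10 values of p and q. The lists end at a p-value of 0.05, so weak calls count as presence. The members and the lists of regions named were chosen with earlier results of these data known.

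Peaks of the LEF1 lists were merged where they overlapped by at least 1 bp. The best peak of a library in a region is that with the highest −log10 p-value. Fold and p-values were used only to describe or rank peaks within a list, and libraries were compared through ranks among regions that all of them hold (ties averaged, normal scores, limma 3.58.1 in R 4.3.3, Benjamini-Hochberg over all regions fitted), through the 20000 top peaks of each list, and through exact permutation tests over libraries (Python 3.11.15, numpy 2.4.6, pandas 2.3.3). The limma script was tested on simulated data. Their noise was independent and normal, with a spread smoothed over the mean score. Regions there had no spread of their own and libraries formed no sets, so the rates below need not hold for the real lists. Without the variance trend it recovered 1.47% of members moved by 1 normal score for either antibody. Of those moved by 3 it recovered 93.9% for LEF1 and 45.5% for TCF7L2, so a member without a call need not be unchanged. Regions that had not been moved were called 2 times for LEF1 and 1 time for TCF7L2 without the trend, and 10 and 67 times with it. P-values measure the spread between 3 cultures of a single line per group.

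The regions named were the 5 members with the best worst rank over the 12 lists, the 3 with the smallest limma p-value for each antibody and direction, the 3 nearest either side of 2000 bp and the 3 whose best rank was worst. Members led by either antibody, of low fold, changed for both antibodies or near the longest stretch without a peak were chosen after their values were seen. The intended motif counts, gene annotation and lists of Wnt, glucocorticoid, B-lineage and housekeeping genes were not run, since no hg19 sequence or annotation was used here. The IgG sample was not analysed here.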

Additional observations from a re-analysis of the deposited data

Results flagged for a closer look

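The treatment differences in the number of members with a top peak differed between the antibodies. The difference was 222.3 members for LEF1 and −276.7 for TCF7L2, so that the LEF1 difference exceeded that of TCF7L2 by 499 members. An exact permutation test of the treatment labels within each antibody gave p = 0.01 (two-sided, 400 relabellings, smallest possible 0.005). Its null is no treatment effect for either antibody, so it does not test whether both effects are equal. This test was not among those planned. The planned tests of each antibody alone gave p = 0.1 for LEF1 and 0.2 for TCF7L2 (exact permutation, two-sided). Among the broad regions the differences were 118.7 and −499, so the contrast was not limited to the members. The LEF1 libraries did not overlap between treatments, whereas TCF7L2 prednisolone 1, at 2248, lay among the controls. With the 5000 strongest peaks both differences were positive, at 63.3 and 22.3.

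For the 90 members within 1 Mb of the longest stretch without a peak, every LEF1 prednisolone library placed them lower than every LEF1 control library, and every TCF7L2 prednisolone library placed them higher than every TCF7L2 control library. The median place among the 65207 regions changed by 8.49 percentage points down the list for LEF1. Among the 8735 regions it changed by −31.8, up the list, for TCF7L2. The changes are 40.3 percentage points apart, but they were taken among different regions, so their difference is not on a common scale. This difference was not tested.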

How the results depend on the processing

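The 4141 members became 2346 with a limit of 1500 bp, 5605 with 2500 bp, 385 when TCF7L2 peaks needed a −log10 q-value of at least 2, 3596 when at least 0.5 of the TCF7L2 peak had to lie inside, and 4195 to 6150 when a replicate was left out. The members with a top LEF1 peak differed by 211.7 to 241.7 without a replicate, those with a top TCF7L2 peak by −397.2 to −207.2, and the median TCF7L2 length by −119.3 to −63.8 bp. The TCF7L2 difference reversed to 22.3 with the 5000 strongest peaks, and the cause was not tested. Members called by limma for LEF1, 0 as reported, numbered 2 by best fold, 1 higher and 1 lower. Of all 65207 regions, 8 were called higher and 3 lower by best fold. Members called for LEF1 numbered 23 when ranked among the 4141 members alone and 84 with the variance trend (background 1.16%). For TCF7L2 they numbered 3 with the variance trend (background 0.0572%) and 0 otherwise. Leaving out any replicate gave 0 for both. Members without overlap, counted against fewer libraries, numbered 859 to 1021 (LEF1 higher) and 485 to 653 (LEF1 lower) without a replicate. For TCF7L2 they numbered 577 to 647 (higher) and 460 to 520 (lower). The shares over all regions were not worked out for fewer libraries, so these counts have no background. Same-numbered libraries of the treatments correlated at −0.0992 to −0.00653 in their deviations from group means. Every such pair joined libraries of different sets by shortest peak. Other pairs across sets correlated at −0.0346 to 0.0151 and pairs within a set at 0.000487 to 0.0888. Whether the numbers pair the libraries can therefore not be told apart from the sets. The replicate block gave 0 limma calls for both antibodies and, for the counts of top peaks and the TCF7L2 length, the same differences with exact p-values of 0.25 to 0.5, where 0.25 is the smallest possible. For the 90 members near the longest stretch, the change in median rank was 2540 for LEF1 and −1473 for TCF7L2 by best fold, and 12646 and −3158 within 0.5 Mb, and 3265 and −1725 within 2 Mb, against 5538 and −2779 within 1 Mb. Depth is unknown, and presence in a list that ends at a p-value of 0.05 grows with depth.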
